A study of Mus musculus with 6 samples.

Results

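The genes described here encode the aminoacyl-tRNA synthetases, the enzymes that join each amino acid to its tRNA. They were taken by gene symbol from a list of 36, of which 20 encode cytosolic enzymes and 16, whose symbols end in 2, encode mitochondrial enzymes. All 36 were among the 23337 gene rows of each library, and all 36 had enough counts to be tested. RNA of the nuclear fraction had been sequenced from 6 lines of mouse neural precursor cells, set up from embryonic dorsal forebrain on day 13.5 and harvested near 80% confluency at passage 6 to 7, in medium with EGF and basic FGF at 20 ng/ml each. The 3 libraries labelled Fmr1 KO came from lines 3, 13 and 16, and the 3 labelled Fmr1 WT from lines 3, 8 and 19, and the labels name no treatment in either genotype. The sources used here do not name the knockout allele, its genetic background or the animals behind each line, so the p-values measure only the spread between these lines. The cells are cultured precursors, so neither genotype stands for a whole brain region. The study compared the genotypes to ask how nuclear RNA differs when Fmr1, which encodes the RNA-binding protein FMRP, is disrupted.

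A synthetase activates its amino acid with ATP and passes it to the matching tRNA, which then enters the ribosome. Mammalian cells keep largely separate enzymes for the cytosol and for the mitochondrial matrix, and both sets are encoded in the nucleus. The glycyl and lysyl enzymes are exceptions, since Gars and Kars each supply both compartments from a single gene. Eprs encodes a fused enzyme that charges both glutamate and proline, whereas in mitochondria Ears2 and Pars2 do so separately. Several cytosolic enzymes sit together in a multi-synthetase complex. Many cytosolic synthetase genes are known from mouse cells as targets of ATF4, the transcription factor of the integrated stress response, which binds C/EBP-ATF response elements in their promoters. Failure of several of these enzymes, mitochondrial ones above all, causes inherited disease of the nervous system.

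Because the ATF4-responsive genes are the best known regulatory group of the family, the promoter windows of 5 cytosolic genes are shown. These 5 are all the cytosolic windows used that hold the core described below, and responsive genes whose windows lack it are not shown. With them stands the window of Sars2, the mitochondrial gene with the highest fold change. Each window runs from 250 bases before to 50 bases after the RefSeq start of the gene in GRCm38.p6, 300 bases in all, on the strand of the gene. The capitals mark TGATGNAA, the core of the C/EBP-ATF response element, in either orientation. The windows lie at chr6:55037751-55038050 (+) for Gars, chr13:49681880-49682179 (+) for Iars, chr4:129189653-129189952 (+) for Yars, chr8:111033592-111033891 (+) for Aars, chr15:11399609-11399908 (-) for Tars and chr7:28741718-28742017 (+) for Sars2.
Gars: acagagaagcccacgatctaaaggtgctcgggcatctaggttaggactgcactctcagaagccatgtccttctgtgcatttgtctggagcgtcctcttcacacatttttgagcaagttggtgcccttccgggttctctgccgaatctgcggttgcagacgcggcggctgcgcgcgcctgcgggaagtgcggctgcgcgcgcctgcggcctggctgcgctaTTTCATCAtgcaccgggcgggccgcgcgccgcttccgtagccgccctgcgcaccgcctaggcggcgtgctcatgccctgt
Iars: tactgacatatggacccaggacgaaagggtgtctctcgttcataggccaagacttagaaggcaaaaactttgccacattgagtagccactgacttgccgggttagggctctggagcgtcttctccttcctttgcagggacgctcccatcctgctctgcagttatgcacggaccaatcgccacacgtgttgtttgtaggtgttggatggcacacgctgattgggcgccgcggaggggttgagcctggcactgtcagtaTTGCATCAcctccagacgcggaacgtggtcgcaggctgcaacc
Yars: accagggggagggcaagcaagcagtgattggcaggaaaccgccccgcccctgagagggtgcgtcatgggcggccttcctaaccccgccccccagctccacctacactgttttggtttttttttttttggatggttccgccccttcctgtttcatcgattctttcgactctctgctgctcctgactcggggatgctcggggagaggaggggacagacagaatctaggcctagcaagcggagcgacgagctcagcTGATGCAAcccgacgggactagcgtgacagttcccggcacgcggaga
Aars: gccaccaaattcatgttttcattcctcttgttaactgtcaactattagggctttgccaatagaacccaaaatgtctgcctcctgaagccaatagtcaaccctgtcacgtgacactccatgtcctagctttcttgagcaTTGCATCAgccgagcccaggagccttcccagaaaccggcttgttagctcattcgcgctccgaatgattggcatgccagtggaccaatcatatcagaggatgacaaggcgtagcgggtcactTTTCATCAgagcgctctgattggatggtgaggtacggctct
Tars: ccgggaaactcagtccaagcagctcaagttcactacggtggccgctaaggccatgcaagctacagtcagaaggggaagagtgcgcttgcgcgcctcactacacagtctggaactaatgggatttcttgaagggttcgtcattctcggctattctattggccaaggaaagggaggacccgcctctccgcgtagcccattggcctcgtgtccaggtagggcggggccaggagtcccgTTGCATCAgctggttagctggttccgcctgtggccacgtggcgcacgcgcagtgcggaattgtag
Sars2: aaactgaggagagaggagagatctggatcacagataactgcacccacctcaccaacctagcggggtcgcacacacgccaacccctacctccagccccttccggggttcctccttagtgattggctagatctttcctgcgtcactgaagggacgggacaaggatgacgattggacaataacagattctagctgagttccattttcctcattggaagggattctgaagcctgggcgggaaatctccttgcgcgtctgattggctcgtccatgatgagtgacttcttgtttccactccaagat

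The core was found in the windows of Gars, Iars, Yars, Aars and Tars, with 2 matches in Aars, and not in that of Sars2. A window was used for 27 of the 36 genes, and 5 of 13 cytosolic and 0 of 14 mitochondrial genes held the core, against 3.97% of all 32851 windows of the table. The windows of Cars, Hars, Hars2, Lars, Nars, Pars2, Rars, Vars and Wars were not used here. Each of the 5 genes with a match belongs to the 12 cytosolic genes known as ATF4-responsive, 8 of which had a window. An E-box, CACGTG, which reads the same on both strands, stood in 4 of 13 cytosolic and 1 of 14 mitochondrial windows, against 7.15% of all windows, and overlapped none of the matches to the core. A match is a run of letters and says nothing of whether a factor was bound there.

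Total counts were 18702738 to 26789522 per library, and 1 count was worth 0.0373 to 0.0535 CPM, the count of a gene scaled to a common library size. A synthetase gene held between 91 and 36637 counts in a library. Counts of same-genotype libraries were further apart than sampling allows (chi-square over degrees of freedom 10.8 to 91.5), so each library was used as a separate replicate. Fmr1, measured first as a check of the labels, was at 371, 188 and 153 CPM in KO lines 3, 13 and 16, against 223, 269.7 and 273 CPM in WT lines 3, 8 and 19. The library labelled KO line 3 thus lay above all WT libraries and showed no loss of Fmr1 RNA. KO lines 13 and 16 lay below all WT libraries but kept Fmr1 RNA. Since the allele is not named, whether it lowers Fmr1 RNA is not known here, so these values cannot decide if a label is right. Over all lines the log2 fold change of Fmr1 was -0.10 (edgeR adjusted p = 0.795), and without KO line 3 it was -0.58 (adjusted p = 0.00152). Every direction given here is that of the labels. All 12 markers of neural precursors could be tested, with 1 higher and 2 lower, or 25% called beside 42.3% of all tested genes. These markers summed to 5924 to 7368 CPM in the KO-labelled libraries, against 7938 to 8984 CPM in WT. Microglial markers summed to at most 1.34 CPM in any library, with 3 of 8 genes at 0 throughout.

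Of the 36 synthetase genes 11 passed the test and 25 did not, and the 11 were higher in the KO-labelled libraries. Of the 20 cytosolic genes 8 rose, namely Lars, Vars, Gars, Mars, Kars, Yars, Iars and Farsa, by 1.24-fold to 1.48-fold, and 0 fell. Of the 16 mitochondrial genes Sars2, Aars2 and Mars2 rose, by 1.26-fold to 1.44-fold, and 0 fell. Calls are at an adjusted p under 0.05 in edgeR's quasi-likelihood test, adjusted over 13925 genes by Benjamini-Hochberg, and by that rule 42.3% of all tested genes were called, 21.8% higher and 20.4% lower. Called higher were 40% of the cytosolic and 18.8% of the mitochondrial genes, beside 21.8% of all tested genes. As 0 members were called lower, the shares called in either direction were also 40% and 18.8%, beside 42.3% of all tested genes. The median log2 fold change was 0.28 over the cytosolic genes and 0.00 over the mitochondrial genes, beside 0.01 over all tested genes. At an unadjusted p under 0.05 there were 11 cytosolic and 3 mitochondrial genes, all of them higher, beside 26.5% of all tested genes higher at that level and 50.9% in either direction. The DESeq2 Wald test and limma-voom also called 0 members lower, while limma-voom with sample weights called 1 lower. No test was made of the difference between the 2 sets.

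**Figure D1:**
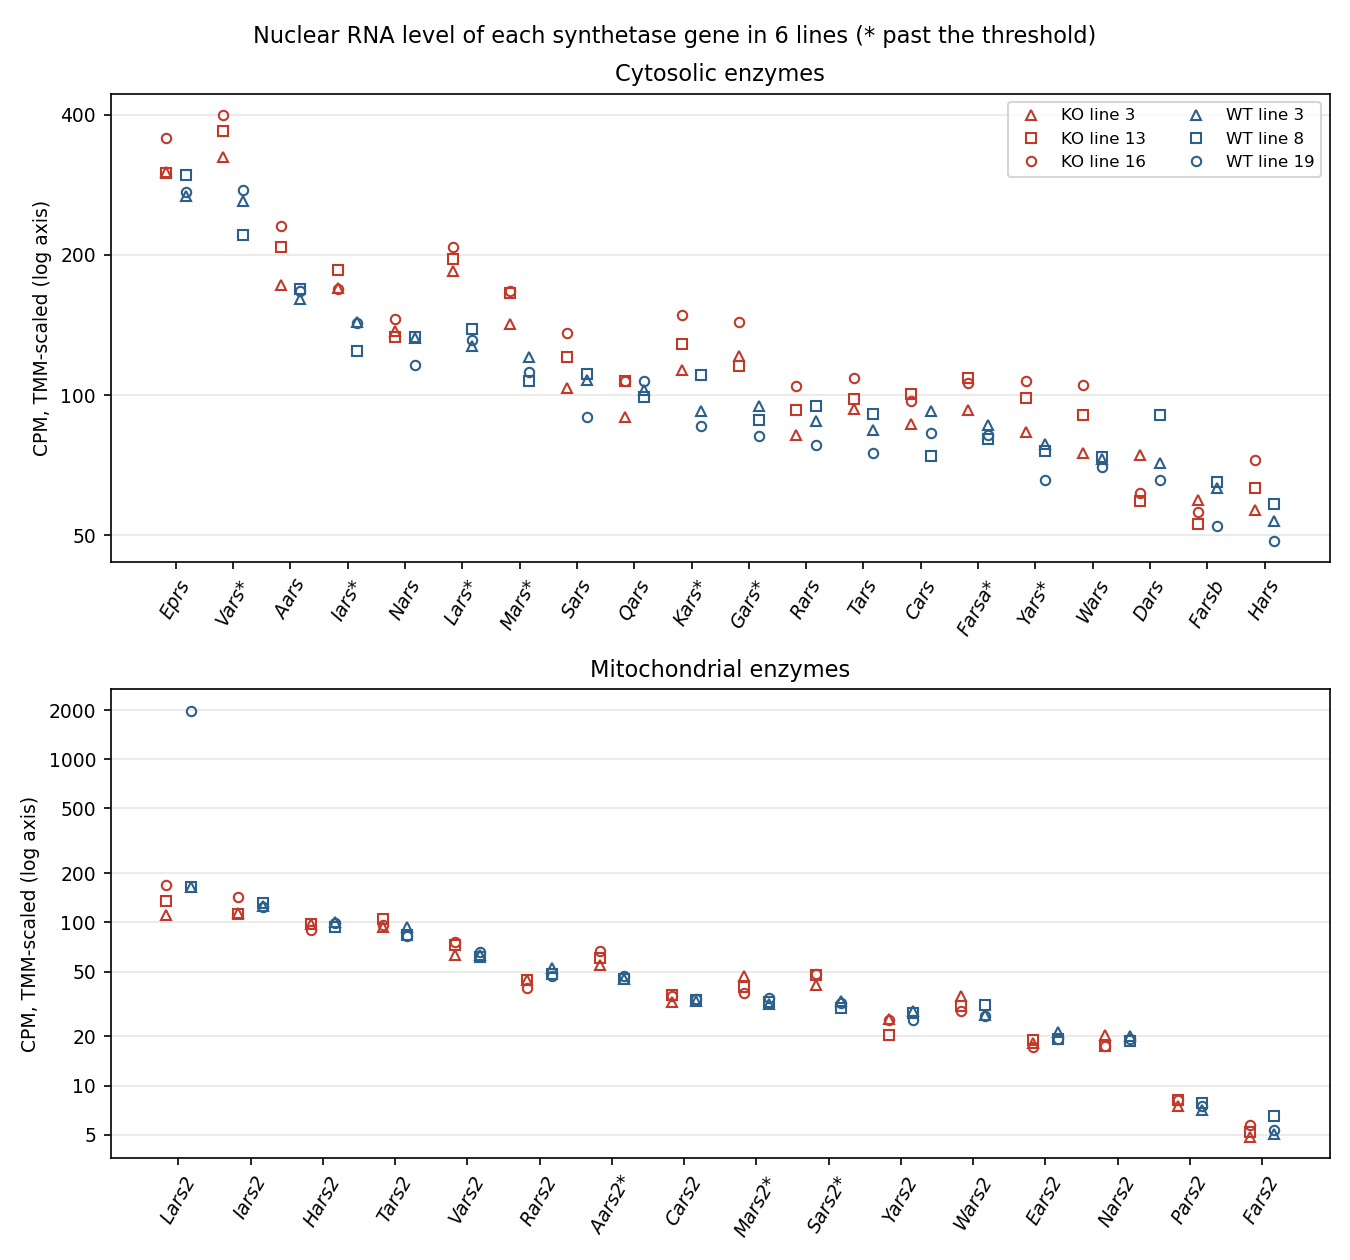
Nuclear RNA level (CPM on a log axis) of each cytosolic (top) and mitochondrial (bottom) synthetase gene, 1 point per library, KO-labelled libraries in red to the left of WT in blue, with an asterisk for genes past the threshold. In the top panel most red points lie above the blue ones, while in the bottom panel the colours mostly mix and Lars2 in WT line 19 stands alone at 1986 CPM.

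Lars, the cytosolic leucyl enzyme and a leucine sensor of the mTORC1 pathway, was at 185, 196 and 208 CPM in KO lines 3, 13 and 16, against 128, 139 and 132 CPM in WT lines 3, 8 and 19. The genotypes did not overlap, and the spread within each was small beside the gap. Its log2 fold change was 0.57 (SE 0.10 and adjusted p = 0.00201 in edgeR). Vars, the valyl enzyme, had 325, 369 and 399.8 CPM in the KO-labelled libraries, against 261, 221 and 275 CPM in WT. All KO values again lay above all WT values. The log2 fold change of Vars was 0.53 (SE 0.13 and adjusted p = 0.00894 in edgeR). For Gars, the glycyl enzyme of both compartments, the KO-labelled libraries gave 121, 116 and 143 CPM, against 94.9, 88.6 and 81.6 CPM in WT. KO line 16 was the highest, and even the lowest KO value was above WT line 3. Gars, whose window holds the core TTTCATCA just upstream of its start, had a log2 fold change of 0.52 (SE 0.12 and adjusted p = 0.0075 in edgeR). Mars, the methionyl enzyme, measured 142, 166 and 167 CPM in the KO-labelled libraries, against 121, 107 and 112 CPM in WT. KO line 3 was the lowest of its genotype and still above every WT line. Mars had a log2 fold change of 0.49 (SE 0.11 and adjusted p = 0.00688 in edgeR), while 68 of its exon bases are also exon of Ddit3 on the opposite strand. In GENCODE release 21 (GRCm38) Lars spans chr18:42202298-42262194, Vars chr17:35000987-35016322, Gars chr6:55038007-55079500 and Mars chr10:127296221-127311786. These 4 genes stayed past the threshold under all 17 alternatives, among them the loss of any single library, with adjusted p of at most 0.0398.

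The other 4 cytosolic genes that rose lay nearer the threshold. Kars, the lysyl enzyme of both compartments, was at 113, 129 and 149 CPM in KO lines 3, 13 and 16, against 92.7, 111 and 85.8 CPM in WT lines 3, 8 and 19. KO line 3 and WT line 8 nearly met. Its log2 fold change was 0.43 (SE 0.14 and adjusted p = 0.0322 in edgeR). Yars, the tyrosyl enzyme, measured 83.2, 98.7 and 107 CPM in the KO-labelled libraries, against 78.6, 76.1 and 65.8 CPM in WT. Here too KO line 3 was closest to WT, and the log2 fold change was 0.39 (SE 0.13 and adjusted p = 0.0356 in edgeR). Iars, the isoleucyl enzyme, stood at 170.2, 185 and 169 CPM in the KO-labelled libraries, against 144, 124 and 143 CPM in WT. The genotypes were well apart, with a log2 fold change of 0.35 (SE 0.10 and adjusted p = 0.0231 in edgeR). Farsa, the catalytic subunit of the phenylalanyl enzyme, had 93.2, 109 and 106 CPM in the KO-labelled libraries, against 86.5, 80.6 and 82.3 CPM in WT. The gap between KO line 3 and WT line 3 was narrow, and the log2 fold change was 0.31 (SE 0.10 and adjusted p = 0.0414 in edgeR). These 4 calls depended on single libraries, and those of Farsa and Yars also on other settings. Farsa and Yars passed without KO line 3 and failed without any of the other 5 libraries (adjusted p 0.0924 to 0.142 for Farsa, 0.0798 to 0.122 for Yars). Kars failed without KO line 13, KO line 16, WT line 3 or WT line 19 (adjusted p 0.077 to 0.125), and Iars without KO line 13, WT line 3 or WT line 8 (adjusted p 0.0752 to 0.0947). Farsa also failed with DESeq2 size factors (adjusted p = 0.0565), upper-quartile scaling (0.0569), library size alone (0.0711) and no filter on low counts (0.0556), and Yars with library size alone (0.0553). Xist, the RNA of the inactive X chromosome, was at 20497, 3.34 and 1.67 CPM in KO lines 3, 13 and 16, against 15457, 18423 and 81.7 CPM in WT lines 3, 8 and 19. High and low Xist were thus split unevenly between genotypes. With Xist state as a covariate Farsa (adjusted p = 0.0546) and Yars (0.0502) failed, and 6 cytosolic genes were called higher in place of 8, beside 23.0% of all tested genes.

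Of the 12 cytosolic genes that did not pass, 9 had positive and 3 negative log2 fold changes. Wars, the tryptophanyl enzyme, which interferon also induces, had 75.2, 90.9 and 105 CPM in the KO-labelled libraries, against 72.9, 73.8 and 70.0 CPM in WT, so that the log2 fold change was 0.32 (edgeR adjusted p = 0.077). Aars, the alanyl enzyme, had 173, 208 and 231 CPM in the KO-labelled libraries, against 161, 169 and 168 CPM in WT, so that the log2 fold change was 0.30 (edgeR adjusted p = 0.0785). In both genes the WT lines were tight and the KO-labelled libraries spread upward from KO line 3 to KO line 16. Of the exon bases of Aars 14.3% are shared with Exosc6 on the same strand, so its counts are uncertain. Tars, the threonyl enzyme, Hars, the histidyl enzyme, Sars, the seryl enzyme, Eprs, Cars, the cysteinyl enzyme, Nars, the asparaginyl enzyme, and Rars, the arginyl enzyme, had log2 fold changes of 0.10 to 0.26. The 3 negative values were small. Dars, the aspartyl enzyme, was at 74.5, 59.4 and 61.5 CPM in the KO-labelled libraries, against 71.4, 90.7 and 65.7 CPM in WT (log2 fold change -0.22, SE 0.15). Farsb, the partner subunit of Farsa, had a log2 fold change of -0.10 (SE 0.12), and Qars, the glutaminyl enzyme, of -0.02 (SE 0.11). Both overlapped between genotypes. A value of this size that misses the threshold does not show that the genotypes were alike.

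**Figure D2:**
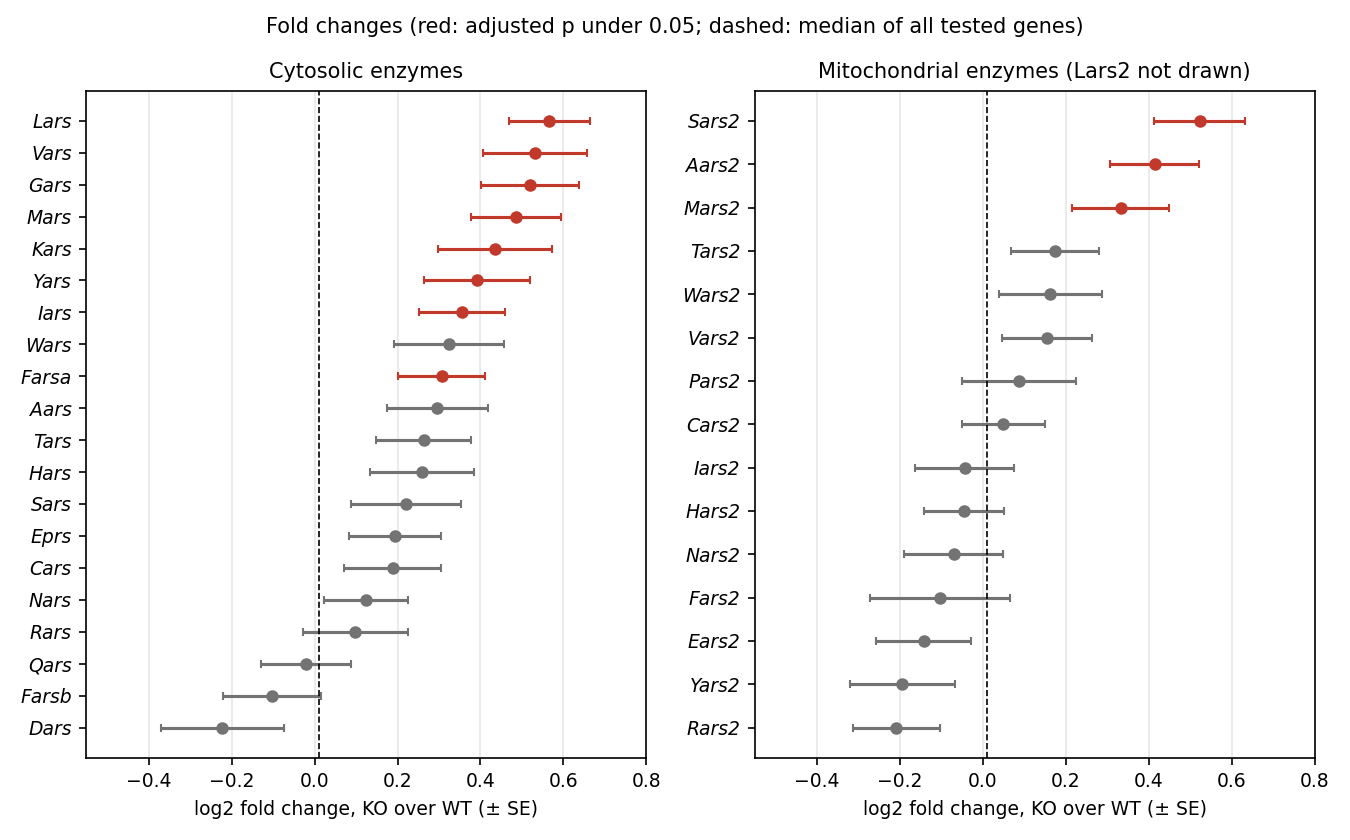
Log2 fold change of each gene, KO-labelled libraries over WT, with its SE as a bar, cytosolic enzymes on the left and mitochondrial enzymes on the right, Lars2 (-2.47) left out. Genes past the threshold are red, and the dashed line is the median of all tested genes at 0.01.

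KO line 3 held the lowest value among the KO-labelled libraries in 14 of the 20 cytosolic genes, and KO line 16 the highest of all 6 libraries in 15. The summed cytosolic RNA followed that order, at 2567, 2796 and 3032 CPM in KO lines 3, 13 and 16, against 2303, 2305 and 2204 CPM in WT lines 3, 8 and 19. The sums did not overlap. Leaving out KO line 3 raised the number of cytosolic genes called higher to 13, with Aars, Hars, Sars, Tars and Wars added (adjusted p 0.00224 to 0.0277), while the share of all tested genes called higher moved to 25.8%. The cytosolic number was 4 without KO line 13 or WT line 3, and 5 without KO line 16, WT line 8 or WT line 19, while the share of all genes called higher was 14.2% to 19% in those 5 fits, so the members' counts moved with the counts over all genes. No cytosolic gene was called lower in any of these 6 fits. The genotypes did not overlap in 13 of 20 cytosolic genes, all of them higher in the KO-labelled libraries, beside 54.3% of all tested genes in either direction.

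Markers of some other cell types differed between the same libraries. Their calls are read beside the 42.3% of all tested genes called, 21.8% higher and 20.4% lower. Astrocyte markers summed to 270 to 359 CPM in the KO-labelled libraries, against 649.8 to 1005 CPM in WT, and 6 of 10 fell. Oligodendrocyte lineage markers summed to 1136 to 1346 CPM in the KO-labelled libraries, against 727 to 809 CPM in WT, with 4 of 8 tested genes higher and 1 lower. Olig2 and Olig1 made up most of these sums. Pdgfra, of the same list, was at 39.0 CPM in the KO-labelled libraries, against 2.31 CPM in WT (log2 fold change 4.03). Of 7 tested neuronal markers 3 rose and 0 fell, and all 7 had positive log2 fold changes. Called higher were thus 42.9% of the neuronal markers, beside 21.8% of all tested genes. Nearly all of the summed level of the neuronal markers was Map2 (listed as Mtap2), at 1602, 1215 and 1048 CPM in KO lines 3, 13 and 16, against 979, 961.7 and 777.6 CPM in WT lines 3, 8 and 19. The other neuronal markers summed to 33.2 to 57.7 CPM in the KO-labelled libraries, against 15.3 to 23.0 CPM in WT. Among them Dcx was at 11.3 CPM in the KO-labelled libraries, against 0.639 CPM in WT (log2 fold change 4.06). Endothelial markers reached at most 16.8 CPM, and fibroblast and pericyte markers at most 17.6 CPM, in any library. Malat1, a nuclear-retained RNA, was at 4613 CPM in the KO-labelled libraries, against 5526 CPM in WT, and did not pass. The part of these differences in the synthetase values was not tested.

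Among mitochondrial enzymes, Sars2, which charges mitochondrial tRNAs with serine, was at 41.1, 47.5 and 48.1 CPM in KO lines 3, 13 and 16, against 33.2, 29.9 and 32.1 CPM in WT lines 3, 8 and 19. The genotypes were clearly separate. Its log2 fold change of 0.52 (SE 0.11 and adjusted p = 0.00536 in edgeR) passed under all 17 alternatives. Aars2, the mitochondrial alanyl enzyme, measured 55.1, 60.6 and 66.6 CPM in the KO-labelled libraries, against 45.1, 44.8 and 46.9 CPM in WT. The WT lines were nearly equal and all below KO line 3. Aars2 had a log2 fold change of 0.41 (SE 0.11 and adjusted p = 0.0138 in edgeR) and failed without WT line 3 (adjusted p = 0.0795) or WT line 8 (adjusted p = 0.0538). Mars2, the mitochondrial methionyl enzyme, had 46.7, 40.4 and 37.2 CPM in the KO-labelled libraries, against 31.6, 32.7 and 34.4 CPM in WT. Here KO line 3 was the highest rather than the lowest of its genotype. The log2 fold change of Mars2 was 0.33 (SE 0.12 and adjusted p = 0.047 in edgeR), and it failed without any library but KO line 16 (adjusted p 0.0712 to 0.17). The number of mitochondrial genes called was 1 without WT line 3 or WT line 8.

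The remaining 13 mitochondrial genes did not pass, 5 with positive and 8 with negative log2 fold changes. Of all 16, the genotypes did not overlap in 5, of which 3 were higher and 2 lower in the KO-labelled libraries, beside the 54.3% of all tested genes. Rars2, the arginyl enzyme, was at 44.3, 44.1 and 39.7 CPM in the KO-labelled libraries, against 52.9, 48.0 and 47.0 CPM in WT. All KO values lay below all WT values, with a log2 fold change of -0.21 (edgeR adjusted p = 0.139). Ears2, the glutamyl enzyme, likewise did not overlap, at 18.2, 19 and 17.2 CPM in the KO-labelled libraries, against 21.4, 19.3 and 19.2 CPM in WT, so that the log2 fold change was -0.14 (edgeR adjusted p = 0.344). Yars2, the tyrosyl enzyme, had a log2 fold change of -0.19, Fars2, the phenylalanyl enzyme, of -0.10, Nars2, the asparaginyl enzyme, of -0.07, and Hars2 and Iars2, the histidyl and isoleucyl enzymes, of -0.04 each. Tars2, Wars2, Vars2, Pars2 and Cars2, which charge threonine, tryptophan, valine, proline and cysteine, had log2 fold changes of 0.05 to 0.17. Of the exon bases of Iars2 22.9% also belong to Rab3gap2 on the opposite strand. Hars and Hars2 lie on opposite strands and share 195 exon bases, and since the strand setting of the counting is not known here, the counts of both are uncertain, as is part of that of Mars.

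Lars2, the mitochondrial leucyl enzyme, stood apart through 1 library. It was at 111, 136 and 170.3 CPM in KO lines 3, 13 and 16, against 165, 164 and 1986 CPM in WT lines 3, 8 and 19. A single WT library thus set its fitted log2 fold change of -2.47 (SE 1.18 and adjusted p = 0.157 in edgeR), which was -0.24 without WT line 19 (adjusted p = 0.323). In the same library Rn45s, the ribosomal RNA precursor, reached 18728 CPM, and its level elsewhere was 1077 to 2567 CPM. Its part in the Lars2 value was not tested. Lars2 and Rn45s were among 5 tested genes at least 5-fold higher in WT line 19 than in each other library. Lars, which charges the cytosolic tRNAs with the same amino acid, showed no such peak there.

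**Figure D3:**
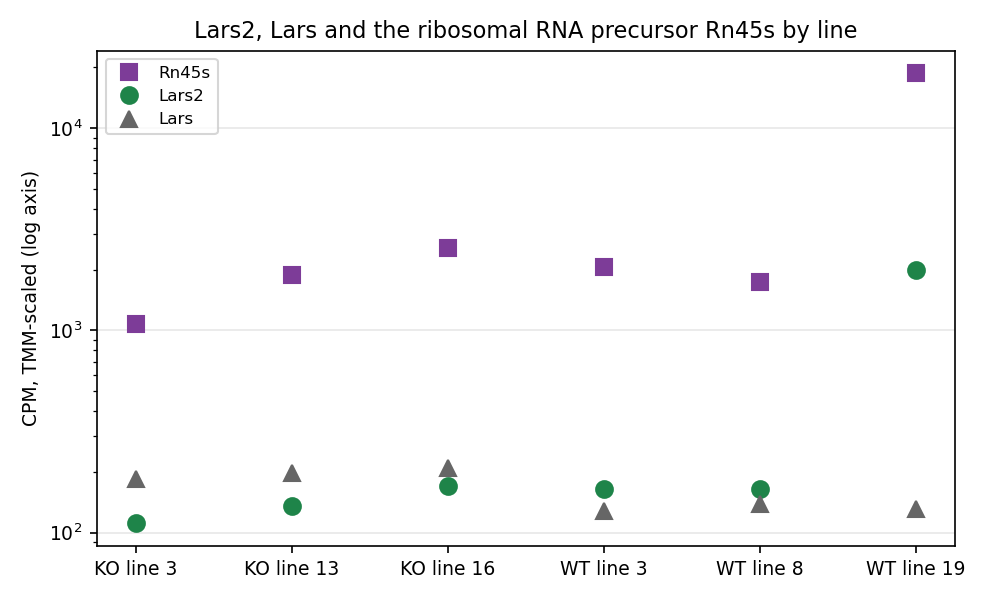
Level (CPM on a log axis) of Lars2, Lars and Rn45s in each of the 6 libraries. Lars2 and Rn45s both peak in WT line 19, at 1986 and 18728 CPM, while Lars stays between 128 and 208 CPM.

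Summed over the 16 mitochondrial genes, RNA was at 812, 853 and 906 CPM in KO lines 3, 13 and 16, against 854, 837 and 2655 CPM in WT lines 3, 8 and 19. Without Lars2 the sums were 701, 717 and 736 CPM in the KO-labelled libraries, against 689, 673 and 669.6 CPM in WT. The genotypes then did not overlap but lay close together. The log2 ratio of summed cytosolic to summed mitochondrial RNA averaged 1.71 ± 0.04 in the KO-labelled libraries and 0.87 ± 0.99 in WT (SD, n = 3 each). With Lars2 left out it was 1.87, 1.96 and 2.04 in the KO-labelled libraries, against 1.74, 1.78 and 1.72 in WT. Every KO ratio exceeded every WT ratio, by a difference of means of 0.21 in place of 0.83. The ratio is taken within a library, so the scaling between libraries does not enter it. Counts of bulk RNA cannot tell apart fewer cells of a type and less RNA per cell.

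Levels of different genes were compared per kilobase of exon. Vars was the most abundant member by median in both genotypes, at 89.3 CPM per kb in the KO-labelled libraries and 63.1 CPM per kb in WT, followed by Eprs at 61.6 CPM per kb in the KO-labelled libraries and 55.7 CPM per kb in WT. In WT, Nars (45.2 CPM per kb) and Farsa (45.1 CPM per kb) came next, and their ranges overlapped. The lowest members were the mitochondrial Mars2, Pars2 and Fars2, at 3.58, 2.67 and 2.20 CPM per kb in the KO-labelled libraries and 2.90, 2.47 and 2.29 CPM per kb in WT. The median over the cytosolic genes was 38.4 CPM per kb in the KO-labelled libraries and 32.6 CPM per kb in WT, and that over the mitochondrial genes was 16.8 CPM per kb in the KO-labelled libraries and 13.9 CPM per kb in WT. The annotated exons of Mars2 run to 11.3 kb, and exon length weighs on each such value. The coefficient of variation of a member was at most 21.3% among the KO-labelled libraries, reached by Lars2, and, with Lars2 set aside, at most 17.3% among WT libraries, reached by Dars.

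Enzymes that charge the same amino acid in the 2 compartments gave 17 pairs, with Eprs paired with Ears2 and Pars2, and Farsa and Farsb each with Fars2. In 14 pairs the cytosolic RNA was the more abundant per kb in every library. The excess was large for Eprs over Pars2, at 24.9-fold in the KO-labelled libraries and 23.2-fold in WT, and for Farsa over Fars2, at 25.2-fold in the KO-labelled libraries and 19-fold in WT. It was near parity for Tars over Tars2, at 1.10-fold in the KO-labelled libraries and 1.04-fold in WT, and for Hars over Hars2, at 1.13-fold in the KO-labelled libraries and 0.915-fold in WT. The mean log2 ratio was higher in the KO-labelled libraries in 15 of 17 pairs. The genotypes did not overlap in 6 of these. They were Eprs over Ears2, Farsa over Fars2, Iars over Iars2, Lars over Lars2, Vars over Vars2 and Yars over Yars2. Lack of overlap was common, at 54.3% of all tested single genes in either direction, and no such share was computed for ratios. The ratio of Lars over Lars2 was -3.95 in WT line 19, against -0.40 and -0.28 in WT lines 3 and 8. For Yars over Yars2 the log2 ratio was 1.82, 2.38 and 2.20 in KO lines 3, 13 and 16, against 1.57, 1.57 and 1.5 in WT lines 3, 8 and 19. For Vars over Vars2 it was 2.46, 2.44 and 2.49 in the KO-labelled libraries, against 2.14, 1.94 and 2.16 in WT. The WT lines stayed below in both pairs. Aars over Aars2 was the only pair that went the other way without overlap, at 0.87, 1.0 and 1.01 in the KO-labelled libraries, against 1.06, 1.13 and 1.06 in WT. With 3 libraries against 3, an exact permutation test of a single ratio cannot go below 0.1, so no p is given for the pairs.

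**Figure D4:**
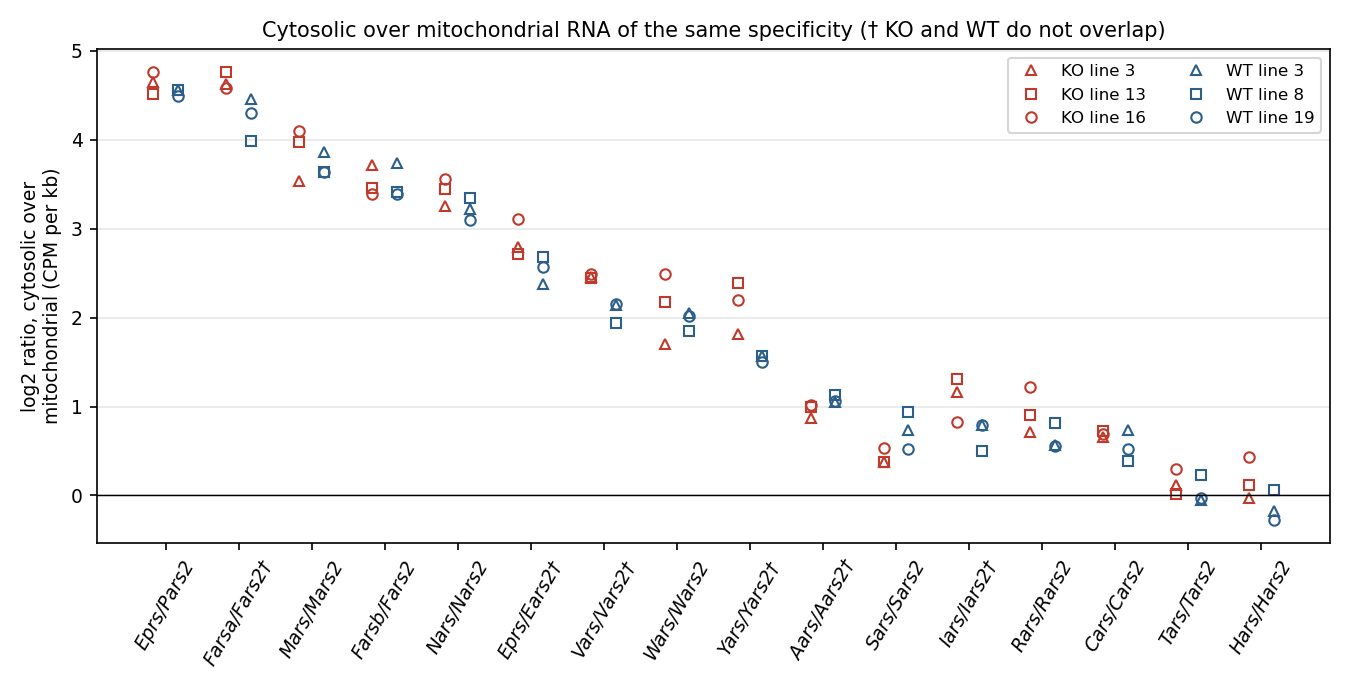
Log2 ratio of cytosolic over mitochondrial RNA (CPM per kb) for enzymes of the same amino acid, 1 point per library, KO-labelled libraries to the left of WT, with Lars over Lars2 left out. Daggers mark pairs without overlap between genotypes, which have red points above blue except for Aars over Aars2, where red lies below.

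Grouped by regulation, the 12 cytosolic genes known from mouse cells as ATF4-responsive all had positive log2 fold changes. So did 5 of the other 8 cytosolic genes and 50.8% of all tested genes. Of the 12 responsive genes Gars, Iars, Lars, Mars and Yars rose, with a median log2 fold change of 0.31 over the 12. Of the other 8 cytosolic genes Farsa, Kars and Vars rose, with a median log2 fold change of 0.18. Among the 5 genes whose window held the C/EBP-ATF core shown above, Gars, Iars and Yars rose, while Aars and Tars had log2 fold changes of 0.30 and 0.26 and did not pass. Of the 8 enzymes of the multi-synthetase complex Iars, Kars, Lars and Mars rose, with a median of 0.27, and of the 12 cytosolic genes outside it 4 rose, with a median of 0.28. By catalytic fold, 6 of 19 class I genes and 5 of 17 class II genes rose, with medians of 0.16 and 0.22. Called higher were 41.7% of the ATF4-responsive genes and 37.5% of the other cytosolic genes. The shares were 50% in the complex and 33.3% outside it, and 31.6% in class I and 29.4% in class II. Of all tested genes 21.8% were called higher and 42.3% in either direction. None of these differences, between groups or from all genes, was tested.

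ATF4 targets outside the synthetases were called about as often as all tested genes. Atf4 itself was at 156, 179 and 205 CPM in KO lines 3, 13 and 16, against 122, 115 and 121 CPM in WT lines 3, 8 and 19, and rose, with a fold change on the log2 scale of 0.59 (SE 0.12 and adjusted p = 0.00414 in edgeR). The KO-labelled libraries kept the order seen in the cytosolic synthetases. Of 31 tested genes of this list, Atf4 included, 9 rose and 5 fell, which is 45.2% called beside 42.3% of all tested genes, with a median log2 fold change of 0.16. Phgdh and Psat1, which make serine, rose by log2 fold changes of 0.92 and 0.60, while Psph, which completes serine synthesis, did not pass (log2 fold change -0.20). Gpt2, a mitochondrial alanine transaminase, rose by 0.87. Of the 8 amino acid transporter genes of the list, Slc6a9, Slc7a11, Slc7a5, Slc1a5 and Slc7a1 rose by log2 fold changes of 0.36 to 0.74. Slc38a2 (0.37), Slc3a2 (0.04) and Slc7a3 (-0.33) did not pass. Those that fell included Ddit3, the stress factor CHOP, at 11.4 ± 0.661 CPM in the KO-labelled libraries, against 17.4 ± 2.79 CPM in WT (SD, n = 3 each), with a log2 fold change of -0.61. Nupr1, a stress-induced chromatin protein, fell to 0.117 ± 0.0597 CPM in the KO-labelled libraries, with 4 counts at most in any of them, against 1.59 ± 0.336 CPM in WT. Vldlr, a lipoprotein receptor, Ddit4, an inhibitor of mTORC1, and Cbs, of cysteine synthesis, fell with log2 fold changes of -0.64, -0.73 and -0.72. Asns, the asparagine synthetase and a classic ATF4 target, was at 40.4 ± 3.34 CPM in KO-labelled libraries, against 38.6 ± 8.06 CPM in WT, and did not pass (log2 fold change 0.07, edgeR adjusted p = 0.763).

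**Figure D5:**
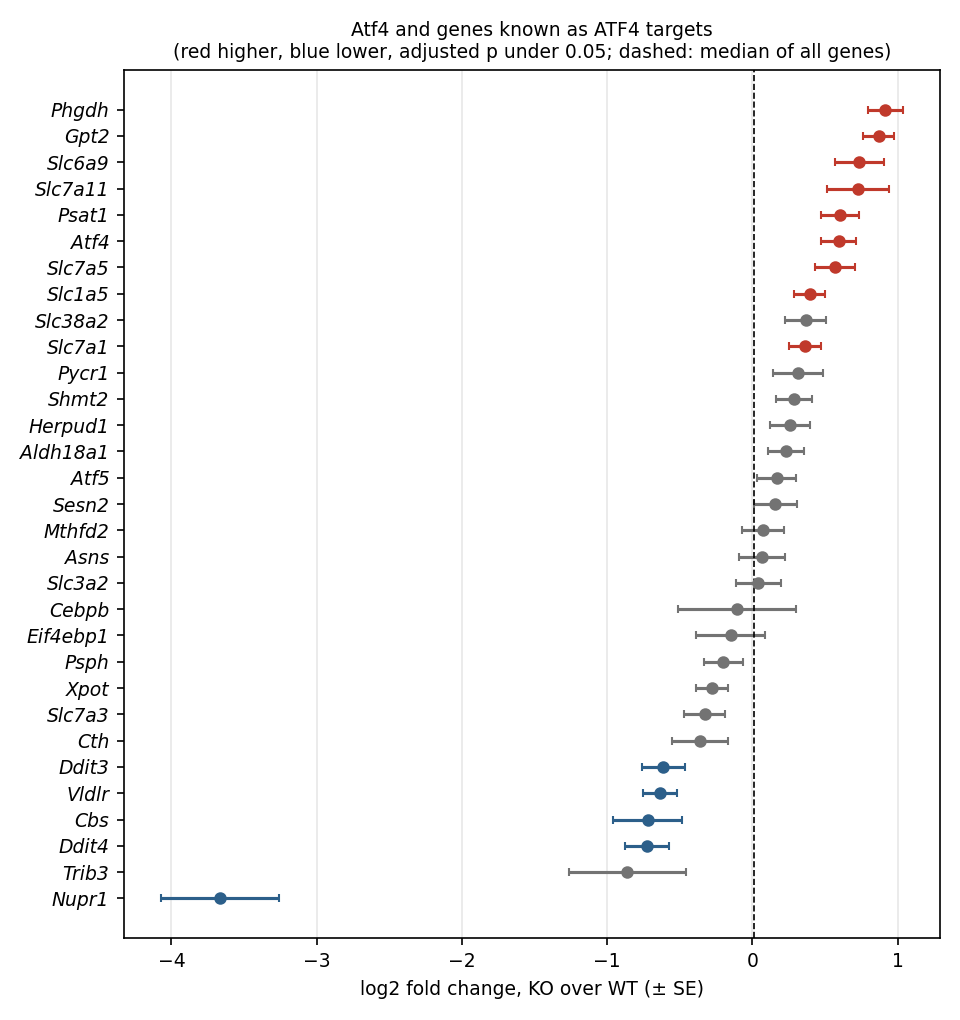
Log2 fold change, KO-labelled libraries over WT, with its SE as a bar, for 31 tested genes known as ATF4 targets or encoding ATF4. Red points (9) rose and blue points (5) fell, with Nupr1 far to the left at a fitted value of -3.67.

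Of 8 upstream sensors and regulators of this response, 2 rose and 1 fell, which is 37.5% called beside 42.3% of all tested genes. Gcn1l1, the ribosome-bound activator of GCN2, rose to 402 ± 43.1 CPM in the KO-labelled libraries, against 288 ± 28.5 CPM in WT, and Eif2ak2, the double-stranded RNA kinase PKR, rose by a log2 fold change of 0.44. Eif2ak3, the kinase PERK of the endoplasmic reticulum, fell by 0.45 on the log2 scale. Eif2ak4, which encodes GCN2, the kinase that senses uncharged tRNA, was at 82.0 CPM in the KO-labelled libraries, against 76.5 CPM in WT, and did not pass (log2 fold change 0.10, edgeR adjusted p = 0.431).

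Among partners of the synthetases, called shares are read beside the 42.3% of all tested genes, and no difference from it was tested. Of the scaffold genes of the multi-synthetase complex, Aimp1, Aimp2 and Eef1e1 had log2 fold changes of 0.19, 0.04 and -0.34 and did not pass. Tarsl2, a further cytosolic synthetase gene, had a log2 fold change of -0.03 and did not pass either. Of 4 genes that amend mitochondrial charging, Gatc, a subunit of the enzyme that makes glutaminyl-tRNA in mitochondria, rose, with a fold change on the log2 scale of 0.52 (SE 0.12 and adjusted p = 0.00914 in edgeR), while its partner subunits Pet112l (Gatb) and Qrsl1 and the formyltransferase Mtfmt did not pass.

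Among genes that proofread tRNA charging, Ankrd16, a cofactor of the alanyl enzyme against mischarging with serine, rose to 132 ± 13.1 CPM in the KO-labelled libraries, against 71.1 ± 1.91 CPM in WT, so that the log2 fold change was 0.89 (SE 0.11 and adjusted p = 3.35e-04 in edgeR). Aarsd1, an alanyl-tRNA editing protein, rose by 0.50. In the selenocysteine pathway Eefsec and Secisbp2, its elongation factor and a binding protein of its signal in messages, rose by log2 fold changes of 0.55 and 0.33. Pstk, the kinase of seryl-tRNA, fell by 0.53 on the log2 scale. Of the 5 tested genes of this pathway 40% were called higher and 20% lower, beside 21.8% and 20.4% of all tested genes. Of 22 genes of tRNA processing and export 4 rose and the other 18 did not pass. Called higher were thus 18.2%, below the 21.8% of all tested genes. Those that rose were Pop1 and Pop4, of ribonuclease P, Tsen15, of the splicing endonuclease, and Xpo5, an export receptor, at log2 fold changes of 0.82, 0.48, 0.50 and 0.37. The tRNA exporter Xpot had a log2 fold change of -0.28 and did not pass. Of 9 elongation factor genes Eef2, the translocase of the ribosome, rose by 0.56, and the others did not pass. That is 11.1% called higher, also below the 21.8% of all tested genes.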

How the data were processed

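The members and the gene lists were chosen with earlier results of these data known. The deposited values are unnormalized counts for each gene symbol, in a separate file per library, per the file headers. The submitters' processing notes name the build mm10 and, with no roles, DESeq2, HTSeq 0.7.2, STAR and cutadapt 1.14. Which annotation and strand setting were used is not given in the sources used here.

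Counts of 3 KO and 3 WT libraries were fitted with edgeR 4.0.16 in R 4.3.3: filterByExpr, TMM scaling, a robust quasi-likelihood fit with 4 residual degrees of freedom, two-sided p-values adjusted by Benjamini-Hochberg over all genes tested, and a threshold of 0.05. CPM are on the TMM scale. The SE comes from the F statistic. The fit was tested on simulated data. Alternatives used DESeq2 1.42.0, limma 3.58.1 (voom), other scalings and filters, a threshold of 0.10, an Xist covariate (1000 CPM), and libraries left out. Removing GC and length trends, and leaving Lars2 out of the sums, were chosen after seeing the data.

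Exon lengths, positions and overlaps are from GENCODE mouse release 21 (GRCm38), and promoters from RefSeq. All members were named, and of each related list up to 4 genes by smallest p-value, plus those of a direction with 3 or fewer calls. Members of the ATF4 list beyond that (the transporters, Psat1, Ddit4, Ddit3, Cbs, Psph, Asns), Eif2ak4, Xpot and Malat1 were named after their values were seen. So were Xist, Map2, Dcx, Pdgfra, Olig1 and Olig2. Precision reflects counting error and the spread between lines. Some genes of the related lists are not reported here.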

Additional observations from a re-analysis of the deposited data

How the results depend on the processing

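No paired analysis was possible because KO and WT lines share only 1 replicate number. Of 612 values of single members under 17 alternatives, 551 kept their direction and side of the threshold, 33 lost the call, 17 gained one and 11 changed sign. Of the 11 called members Lars, Vars, Gars, Mars and Sars2 were called under all alternatives. Cytosolic genes called numbered 6 with library size alone or the Xist covariate, and 7 with DESeq2 size factors, upper-quartile scaling or no filter. They numbered 12 with sample weights and 11 at a threshold of 0.10, where 7973 and 7132 of all genes were called. With single libraries left out the cytosolic genes called ran from 4 to 13 and the mitochondrial ones from 1 to 3. Genes of the related lists then ran from 18 to 40 against 29, and all genes from 4262 to 7610 against 5884. The log2 ratio of summed cytosolic to mitochondrial RNA, KO minus WT, ran from 0.26 (without WT line 19) to 1.12 against 0.83, and was 0.28 without WT line 19 and KO line 3 and 0.21 without Lars2. With GC and length trends removed 44 genes of the related lists were called, and the log2 fold changes of Dars (0.0814), Farsb (0.0191), Nars2 (0.0193) and Fmr1 (0.11) turned positive. That of Qars was 0.0399 with sample weights and 0.0916 without WT line 19 and KO line 3. With single libraries left out the log2 fold change ran from -0.0596 to 0.0652 for Qars, from -0.155 to 0.0223 for Iars2, from -0.0766 to 0.00 for Hars2, from -0.19 to 0.0107 for Fars2 and from -0.58 to 0.14 for Fmr1. Without WT line 19 and KO line 3 Dars was called lower (-0.42, adjusted p = 0.00749), and with sample weights Yars2 was called lower (-0.33, adjusted p = 0.0282). The cause of these shifts was not tested. Fars2, with 91 to 138 counts in a library, was the least deeply counted member.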
